A study of Saccharomyces cerevisiae with 48 samples.

Results

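The copper uptake genes of budding yeast were followed through 48 time points of one culture: CTR1 (YPR124W), CTR3 (YLR411W), CTR2 (YHR175W), FRE1 (YLR214W), FRE7 (YOL152W) and MAC1 (YMR021C). The 6 genes were taken by name, each has 1 probe set among the 5498 named for Saccharomyces cerevisiae, and all 6 were among the 5372 above the filter for dim signals. They were selected on measured values, their rhythm and their level after phenelzine set against control, so those values are a description here and carry no test. Changes from one cycle to the next after phenelzine, and the slope over the hours after it, are other contrasts and were tested, but they use samples that also entered that level, so their p-values are not independent of the choice.

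RNA from strain IFO0233, grown on glucose in a single fermenter, was hybridised to 48 Affymetrix Yeast 2.0 arrays, 1 for each sample taken at steps of 4 min. Phenelzine samples (37 arrays, 14.6 to 17.0 h after inoculation) were taken once phenelzine, which inhibits monoamine oxidases, had been added, and control samples (11 arrays, 13.8 to 14.5 h) came from the same culture before it. The stated aim was to double the period of the culture's cycle with the drug, whose dose is not given in the sources used here. No untreated culture was sampled over the later hours, so the drug and the passing of time cannot be told apart, and time points stand in for replicates: p-values measure only the spread between samples of this culture. The tests also treat neighbouring samples as independent, although values 4 min apart in one cycle are alike, so the p-values may be too small. By their labels the control samples precede the hours at which, in the growth protocol, oscillation typically sets in. Minutes are counted here from the first phenelzine sample, which puts the control at -44 to -4 min and phenelzine from 0 min on.

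Copper enters yeast mostly as the reduced ion. The plasma membrane reductases Fre1 and Fre7 reduce it, the high-affinity transporters Ctr1 and Ctr3 carry it across the plasma membrane, and Ctr2 releases copper stored in the vacuole. Mac1 is the copper-sensing transcription factor that switches on CTR1, CTR3, FRE1 and FRE7 when copper is scarce. In many laboratory strains CTR3 is silenced by a Ty2 transposon inserted in its promoter.

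Signals are given as quantile normalised log2 values, and levels of different genes are not set against each other, because probe sets differ in brightness. Array number 91 is absent from the labels, and the 16 arrays numbered above it are those from 84 min on. Another name suffix (02) is carried by 7 arrays, all of phenelzine samples, and that at 140 min is also among those 16. Fission yeast probe sets, which the culture cannot supply, had a median of 1.17 to 3.13 in phenelzine arrays and 1.19 to 2.32 in control arrays, and the highest value was that of the array at 96 min. After phenelzine 89.7% of tested probe sets had a 48-min rhythm by limma's F test at an adjusted p under 0.05, and 66.7% had a 40-min rhythm in the control. The control window is about as long as its period, so that there a rhythm cannot be told apart from a single rise and fall.

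CTR3 had by far the widest swing of the 6 genes, and both its peaks and its troughs lay higher in the later cycles. In the 37 phenelzine samples it ranged from 8.16 to 12.05 with a median of 11.11 (mean 10.50 ± 1.33, SD), against 8.10 to 11.33 with a median of 10.21 in the 11 control samples (mean 9.78 ± 1.31, SD). The highest sample was 14.8-fold above the lowest after phenelzine and 9.38-fold in the control. In deposited signal units the range was 210.2 to 4670 after phenelzine and 248 to 2676 in the control, so the gene was plainly expressed in this culture. Each sample is RNA of the whole culture, so fewer cells with the transcript and less of it per cell cannot be told apart. The groups overlapped over most of the range, and 14 of the 37 phenelzine samples, those near the tops of the cycles, lay above every control sample.

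FRE1, the main cell surface metalloreductase, ranged from 8.39 to 9.91 with a median of 9.37 in phenelzine samples (mean 9.22 ± 0.40, SD, n = 37), against 8.45 to 9.41 with a median of 8.85 in control samples (mean 8.86 ± 0.35, SD, n = 11). The lowest samples of the groups were nearly level, and 16 of the 37 phenelzine samples lay above every control sample.

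CTR1, the other plasma membrane transporter, ranged from 8.32 to 9.60 with a median of 8.84 in phenelzine samples (mean 8.89 ± 0.31, SD, n = 37), against 8.26 to 9.01 with a median of 8.58 in control samples (mean 8.62 ± 0.24, SD, n = 11). Here 13 of the 37 phenelzine samples lay above every control sample. Its troughs, smoothed over 3 neighbouring samples, were at 8.35 in the control and at 8.44, 8.50 and 8.67 in the phenelzine cycles in order.

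MAC1, the regulator, ranged from 9.05 to 9.96 with a median of 9.68 in phenelzine samples (mean 9.60 ± 0.25, SD, n = 37), against 9.30 to 9.93 with a median of 9.73 in control samples (mean 9.70 ± 0.19, SD, n = 11). Its groups overlapped, with 2 phenelzine samples above and 7 below every control sample. FRE7, another reductase under copper control, followed the fitted wave least closely of the 6 and lay at 4.73 to 6.24 with a median of 5.51 in phenelzine samples (mean 5.57 ± 0.36, SD, n = 37) and 5.25 to 5.99 with a median of 5.62 in control samples (mean 5.58 ± 0.26, SD, n = 11). The limit for a dim probe set was 3.01. CTR2, the vacuolar exporter, barely moved, at 12.00 to 12.54 with a median of 12.29 in phenelzine samples (mean 12.27 ± 0.14, SD, n = 37) and 12.12 to 12.38 with a median of 12.28 in control samples (mean 12.26 ± 0.09, SD, n = 11).

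**Figure D1:**
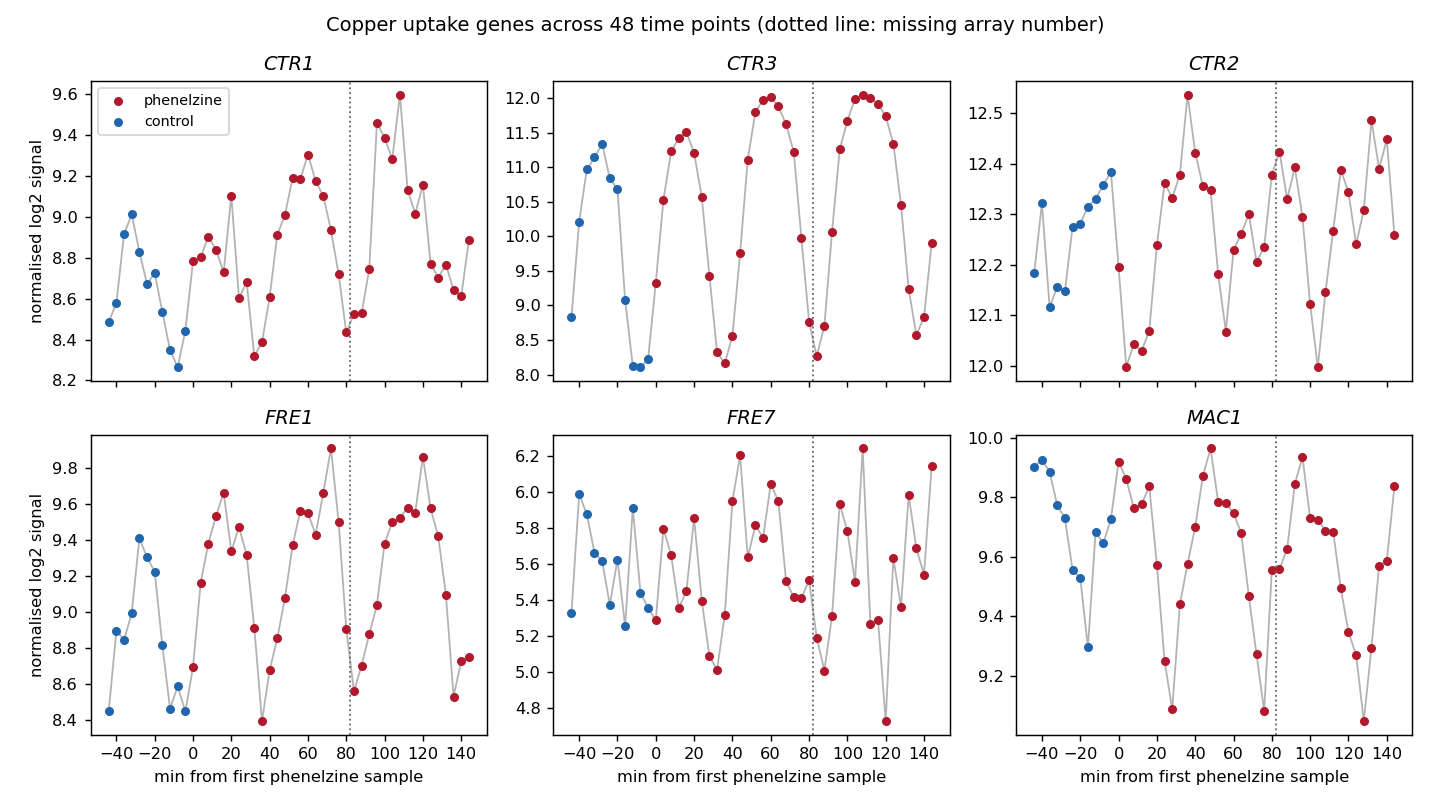
Quantile normalised log2 signal of the 6 copper uptake genes (y axes, each with its own scale) against minutes from the first phenelzine sample (x axis); each point is 1 array, red for phenelzine (37) and blue for control (11), and the dotted line marks the skipped array number. CTR3 swings between 8.16 and 12.05 after phenelzine with flat tops, while CTR2 stays within 12.00 to 12.54 and peaks where CTR3 is low.

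The rhythm of CTR3 was among the largest in the transcriptome. Its fitted amplitude, the distance from the mean to the peak of the fitted wave, was 1.77 ± 0.13 (SE) with a 48-min period after phenelzine and 1.72 ± 0.14 (SE) with a 40-min period in the control, which ranked 27 and 21 of 5372 in those fits. The amplitude of FRE1 was 0.51 ± 0.05 after phenelzine and 0.43 ± 0.06 in the control, and that of CTR1 was 0.37 ± 0.04 and 0.30 ± 0.05. MAC1 had amplitudes of 0.30 ± 0.03 after phenelzine and 0.23 ± 0.04 in the control, FRE7 of 0.25 ± 0.08 and 0.14 ± 0.12, and CTR2 of 0.15 ± 0.02 and 0.10 ± 0.03. The medians over all tested probe sets were 0.23 after phenelzine and 0.21 in the control. CTR3, FRE1, CTR1 and, by a smaller margin, MAC1 thus swung more than the typical gene and CTR2 less. FRE7 lay a little above the median after phenelzine and below it in the control. All 6 genes passed the rhythm test after phenelzine and 5 did in the control, all but FRE7; since the genes were picked for their rhythm and most genes passed, nothing is read from these counts.

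The genes peaked in the same order in both fits. After phenelzine the fitted wave of MAC1 peaked first, at 3.64 ± 0.77 min (SE) into the 48-min cycle, followed by FRE7 at 4.98 ± 2.34 min, CTR1 at 10.8 ± 0.82 min, CTR3 at 13.3 ± 0.52 min, FRE1 at 17.1 ± 0.69 min and CTR2 at 34.6 ± 1.06 min. MAC1 and FRE7 lay within their errors of each other, and CTR1 and CTR3 were a few minutes apart. In the control MAC1 peaked at -38.0 ± 1.27 min, FRE7, whose rhythm was not called there, at -35.2 ± 5.76 min, CTR1 at -30.1 ± 1.00 min, CTR3 at -29.2 ± 0.50 min, FRE1 at -26.5 ± 0.86 min and CTR2 at -11.5 ± 1.96 min. There CTR1 and CTR3 lay within their errors of each other. As a share of the fitted cycle, the peak of CTR3 fell at 27.8% after phenelzine and 26.9% in the control, that of FRE1 at 35.5% and 33.7%, and that of CTR2 at 72.2% and 71.4%.

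**Figure D2:**
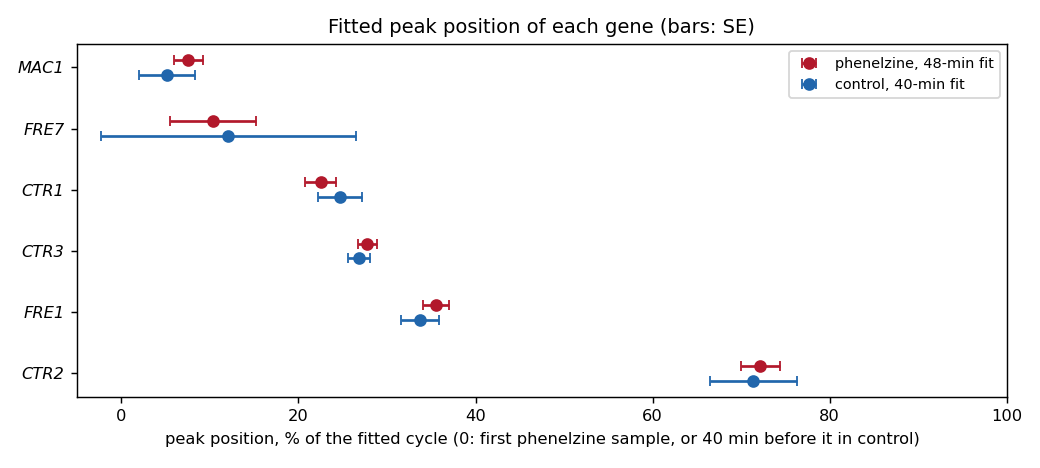
Fitted peak position of each gene as a percentage of its cycle (x axis, 0 at the first phenelzine sample or 40 min before it in the control), from a 48-min wave over 37 phenelzine arrays (red) and a 40-min wave over 11 control arrays (blue); bars are SE. MAC1 comes first at 7.6% after phenelzine and 5.1% in the control, CTR2 last at 72.2% and 71.4%. The periods and starting points were set and not estimated, and the shares depend on them.

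Smoothed over 3 neighbouring samples, CTR3 peaked at -32, 12, 60 and 108 min and reached its troughs at -8, 36, 84 and 136 min. MAC1 peaked at -40, 4, 48 and 96 min, ahead of CTR3 by 8 to 12 min in each cycle. Genes of the mitochondrial ribosome, taken as a list mean, had peaks at the same samples as CTR3 in the first 2 cycles sampled and 4 min before it in the others. The mean of the sulfate assimilation genes MET3, MET14, MET16, SUL1, SUL2 and MET10 peaked at -12, 32, 80 and 136 min, within 4 min of the troughs of CTR3. CTR2 peaked at -8, 36, 88 and 136 min, likewise within 4 min of those troughs. The first MAC1 and CTR3 peaks lie near the start of sampling, where the window may cut them off.

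Mean levels of CTR3, FRE1 and CTR1 were higher over all phenelzine samples than over the control, with groups that overlapped. The difference in mean log2 signal, phenelzine minus control, was 0.72 ± 0.44 (SE) for CTR3, 0.36 ± 0.13 for FRE1 and 0.27 ± 0.10 for CTR1, and it was 0.01 ± 0.05 for CTR2, -0.02 ± 0.12 for FRE7 and -0.09 ± 0.08 for MAC1. None of the 6 was called in that fit, where 0.465% of the tested probe sets were, 0.354% higher and 0.112% lower. The 11 control samples and the 37 phenelzine samples cover unlike stretches of the cycle, so the arrays were also compared at like positions, by pairing each of the first 11 phenelzine samples with the control sample 44 min before it. In those pairs CTR3 was higher by 0.25 ± 0.05 (10 of 11 pairs) and FRE1 by 0.28 ± 0.07 (10 of 11 pairs). Both were called, where 3.69% of probe sets were, 1.55% higher and 2.14% lower, and since this contrast was used in picking the genes, nothing is read from that. The paired differences were 0.09 ± 0.05 for CTR1, -0.02 ± 0.04 for CTR2, -0.12 ± 0.11 for FRE7 and -0.08 ± 0.04 for MAC1.

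CTR3 and CTR1 rose in the second cycle after phenelzine, set against the first. CTR3 averaged 10.62 ± 1.40 (SD, n = 12) in the second cycle, 48 to 92 min, and 10.02 ± 1.30 (SD, n = 11) in the first, 0 to 40 min, and its highest sample was 12.01 in the second and 11.50 in the first. Compared with the sample 48 min earlier, CTR3 was higher in 12 of 12 pairs, by 0.11 to 1.78, with a mean of 0.61 ± 0.16 (SE, limma, adjusted p = 0.0179 over 5372 probe sets). CTR1 was higher by 0.18 ± 0.06 (SE), in 9 of 12 pairs (limma, adjusted p = 0.0396). Both rose in a comparison in which 19.1% of probe sets were called, 10.3% higher and 8.8% lower.

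The size of the CTR3 difference depended on the stage of the cycle. It was 1.78 and 1.27 at 48 and 52 min, on the rising flank, between 0.38 and 0.74 from 56 to 80 min, and 0.11, 0.14 and 0.31 at 84, 88 and 92 min, in the trough and on the next rise. The time of the rise itself did not keep to 48 min: CTR3 crossed its midpoint upward at 2.48, 45.0 and 92.05 min, so the first interval was 42.5 min and the next 47.1 min. With pairs 44 min apart the CTR3 difference was 0.47 (adjusted p = 0.389) and with 52 min 0.55 (adjusted p = 0.35), and no probe set was called at these lags, where 769 and 836 had an unadjusted p under 0.05. On the deposited scale, without normalisation between arrays, it was 0.65 (adjusted p = 0.363), and without the pairs that hold a suffix 02 array it was 0.58 (adjusted p = 0.0503), all from limma.

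The other 4 genes did not pass this test. FRE1 was higher by 0.14 ± 0.05 (SE) in 10 of 12 pairs (limma, adjusted p = 0.0654), and passed when the pair at 64 min was left out (0.18, adjusted p = 0.0269). The differences were 0.03 ± 0.04 for CTR2, 0.02 ± 0.14 for FRE7 and -0.02 ± 0.03 for MAC1. The CTR1 call was lost when any 1 of the pairs at 48, 52, 56, 60, 64, 72 or 84 min was left out, with differences of 0.16 to 0.19 and adjusted p of 0.0540 to 0.0846. The CTR3 call was kept in all 12 such fits, at an adjusted p of 0.0100 to 0.0398.

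**Figure D3:**
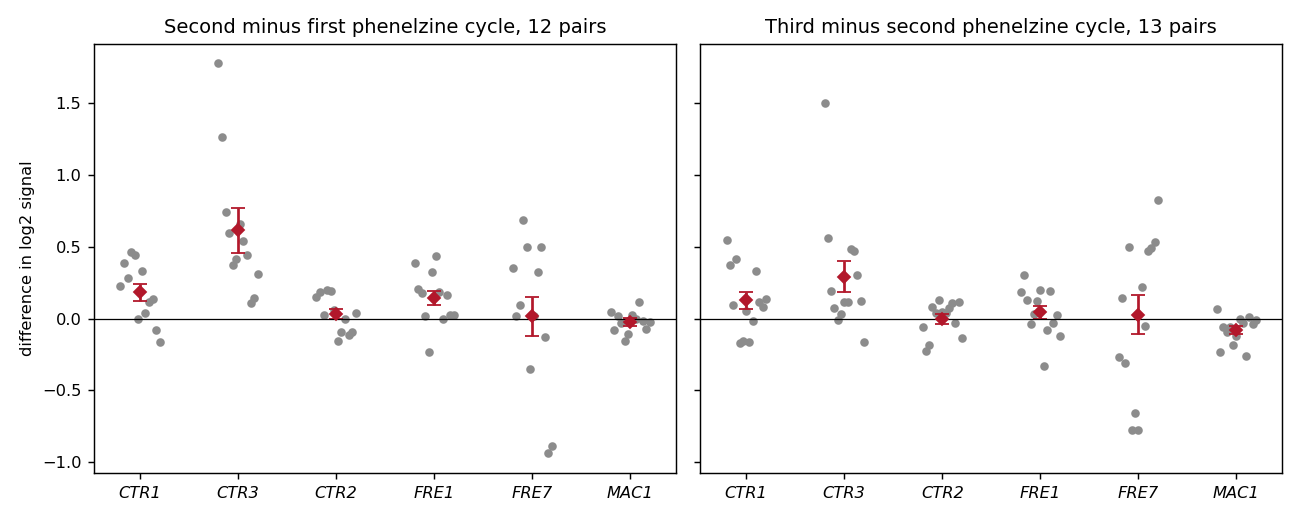
Difference in log2 signal (y axis) between samples of successive phenelzine cycles for the 6 genes (x axis): second minus first cycle in 12 pairs 48 min apart (left) and the third minus the second in 13 pairs 52 min apart (right). Grey points are pairs in time order from left to right, and red diamonds with bars are means ± SE. All 12 CTR3 points on the left lie above 0.

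From the second to the third cycle no member passed the test, where 15.9% of probe sets did, 8.86% higher and 7.02% lower; an unadjusted p under 0.05 was reached by 2 of the 6, CTR3 and MAC1. CTR3 was higher in 11 of 13 pairs, by 0.29 ± 0.11 (SE, limma, adjusted p = 0.0757), and its highest sample was 12.05 in the third cycle and 12.01 in the second. The pair at 96 min differed by 1.502 and the others by -0.16 to 0.56. That pair holds the array with the highest fission yeast median. Its partner, at 44 min, lies before the second cycle as defined above and on the rising flank. There CTR3 went from 9.75 at 44 min to 11.11 at 48 min, and it was at 11.26 at 96 min. What made this pair differ was not tested. Without that pair the CTR3 difference was 0.19, and as the spread was smaller it passed (limma, adjusted p = 0.0460). CTR1 differed by 0.13 ± 0.06 (adjusted p = 0.163), MAC1, higher in 2 of 13 pairs, by -0.08 ± 0.03 (adjusted p = 0.0841), and FRE1 differed by 0.04 ± 0.05. All arrays of the third cycle come after the skipped array number, while the partners of 10 of the 13 pairs come before it. In the 3 pairs with both arrays after it the CTR3 difference was 0.09 (adjusted p = 0.789), and without the pairs that hold a suffix 02 array it was 0.08 (adjusted p = 0.398), again from limma.

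Over all 37 phenelzine samples, with the 48-min wave in the model, CTR3 rose by 0.44 ± 0.12 log2 units per hour (SE, limma, adjusted p = 0.00505) and CTR1 by 0.16 ± 0.04 (adjusted p = 0.00236). Slopes were called for 39.8% of probe sets, upward for 20.6% and downward for 19.2%. The slope was 0.09 ± 0.05 for FRE1 (adjusted p = 0.144), 0.07 ± 0.08 for FRE7, 0.03 ± 0.02 for CTR2 and -0.06 ± 0.03 for MAC1 (adjusted p = 0.131). Before the skipped array number the slope of CTR3 was 0.91 (adjusted p = 0.0105) and that of CTR1 was 0.31 (adjusted p = 0.0316). With arrays on either side of the gap given separate levels, CTR3 had 0.49 (adjusted p = 0.348) and CTR1 0.18 (adjusted p = 0.291), so the calls were lost although the slopes were no smaller. A further fit took the position in the cycle from the first 2 principal components of 5335 other probe sets on these same arrays. With that position as a covariate the slope of CTR3 was 0.29 (limma, adjusted p = 1.2e-05). No member, and no probe set of the 5372, was called in the limma fit for a component of 96 min, double the fitted 48 min. There 417 had an unadjusted p under 0.05. With a component of 80 min beside a 40-min wave, the period fitted in the control, no member was called either.

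The time that CTR3 spent above a fixed line was longer in the later cycles, in which its troughs and peaks also lay higher. Its smoothed troughs were at 8.15 in the control and at 8.35, 8.58 and 8.88 in the phenelzine cycles. Its peaks were at 11.15 in the control and at 11.38, 11.95 and 12.01 after it. The troughs were also 44, 48 and 52 min apart. A wider peak, a raised curve and a longer cycle therefore cannot be told apart here. Halfway between its lowest and highest samples, at 10.08, CTR3 stayed above the line for 21.9 min in the control, 23.2 min in the first phenelzine cycle, 30.7 min in the second and 37.2 min in the third. Upward crossings were 42.9, 42.5 and 47.1 min apart and downward crossings 44.2, 49.9 and 53.6 min apart, so the downward crossings drew apart by more than the upward ones. FRE1 was above its midpoint of 9.15 for 11.2, 25.7, 29.4 and 34.02 min in the same order. CTR1 was above 8.93 for 5.16, 3.23, 27.3 and 29.3 min, with only 1 sample over the line in the control and in the first phenelzine cycle. MAC1 was above 9.51 for 34.7 min for the peak that spans the addition and 33.3 and 36.2 min for those after it. These durations come from 1 culture and have no replicate.

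**Figure D4:**
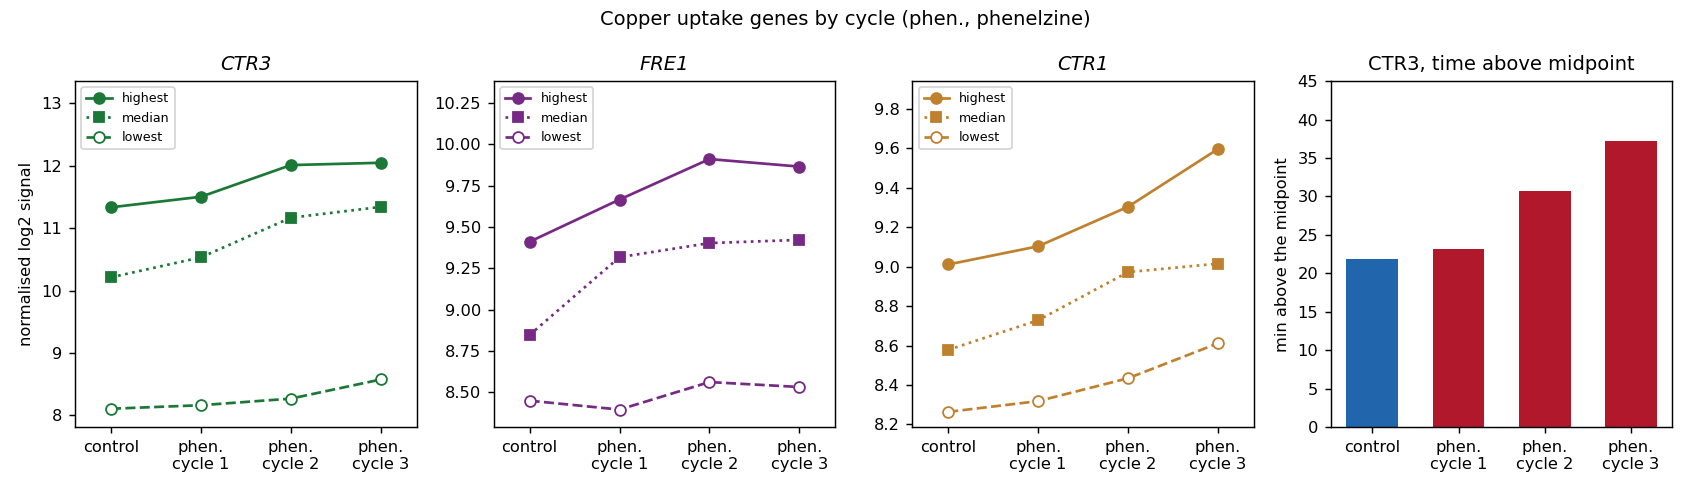
Highest, median and lowest normalised log2 signal of CTR3, FRE1 and CTR1 in the control window and in the 3 phenelzine cycles (left 3 panels), and minutes that CTR3 spent above its midpoint of 10.08 (right, bars from 0). The highest CTR3 sample was 11.33, 11.50, 12.01 and 12.05 in that order, and the time above the midpoint 21.9, 23.2, 30.7 and 37.2 min.

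Across the 48 arrays CTR3 ran with FRE1 (Pearson r = 0.86) and CTR1 (r = 0.85), and CTR1 with FRE1 at r = 0.63. CTR2 ran opposite to CTR3 (r = -0.62) and to CTR1 (r = -0.48). MAC1 was nearly unrelated to CTR3 at the same time point (r = 0.12) and slightly opposed to FRE1 (r = -0.31), and FRE7 went most with MAC1 (r = 0.42) and CTR1 (r = 0.40). These are descriptions over 48 time points that share one culture and one cycle.

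By the same measure the genes most like CTR3 were FMP16 (r = 0.97), COX15 (r = 0.97), which acts in haem A synthesis, and ERV2 (r = 0.96), a thiol oxidase of the endoplasmic reticulum, and 87 genes had r above 0.9 with it. Those most like CTR1 were RSB1 (r = 0.90), HXT13 (r = 0.89) and PDR15 (r = 0.89), and those most like FRE1 were YJL218W (r = 0.93), which adjoins the Mac1 target REE1 in the R64 gene table, VBA3 (r = 0.92) and HOL1 (r = 0.91). MAC1 was closest to RMD5, MBF1 and CMP2 (r = 0.93 for each). CTR2 had weaker matches in DNF2 (r = 0.81), WWM1 (r = 0.81) and CSR1 (r = 0.80), and FRE7 only YOR385W (r = 0.55), FMT1 (r = 0.54) and YPK2 (r = 0.53).

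The other genes of copper handling were followed as 5 lists. Of their 31 tested genes, 7 rose and 1 fell in the second cycle against the first, 4 rose and 2 fell in the third against the second, and 6 had an upward and 4 a downward slope. Over all tested probe sets 10.3% rose and 8.8% fell in the second cycle, 8.86% rose and 7.02% fell in the third, and 20.6% had an upward and 19.2% a downward slope, and nothing particular to the lists is read from their counts. The median difference over the 31 was 0.06 in the second cycle and -0.01 in the third, beside 0.00 and 0.01 over all tested probe sets. None was called by limma for its level after phenelzine or in the pairs with the control, where 0.465% and 3.69% of probe sets were, although 5 in each had an unadjusted p under 0.05.

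Of the 2 other reported Mac1 targets, REE1, a regulator of enolase expression, had a slope of 0.11 ± 0.01 per hour (SE, limma, adjusted p = 8.44e-09) and rose in both cycle comparisons, by 0.09 and 0.10. IRC7 was called in none of these 3. The REE1 slope was not called after median centring in place of quantile normalisation (limma, adjusted p = 0.148). Among 11 genes that deliver copper to its target proteins, 2 rose in the second cycle, 2 in the third and 3 had an upward slope, beside the 10.3%, 8.86% and 20.6% of all probe sets. SCO1, which hands copper to cytochrome c oxidase, rose by 0.15 ± 0.04 in the second cycle (limma, adjusted p = 0.0149) and by 0.09 ± 0.03 in the third (adjusted p = 0.0439), the call in the third being kept in 4 of 13 fits with 1 pair left out. COX19, another factor for that oxidase, rose by 0.10 ± 0.03 in the third (adjusted p = 0.0273), and PIC2, a mitochondrial carrier of phosphate and copper, by 0.15 ± 0.05 in the second (adjusted p = 0.0439), a call kept in 5 of 12 such fits. The upward slopes were those of SCO1, COX19 and SOD1, superoxide dismutase, named here after its values were seen (0.03 ± 0.01 per hour, adjusted p = 0.00798).

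Of 5 tested copper resistance genes, 1 rose in the second cycle and 1 in the third, and 1 slope was upward and 2 downward, beside 10.3%, 8.86%, 20.6% and 19.2% of all probe sets. The metallothionein gene CRS5 rose by 0.13 ± 0.04 in the second cycle (limma, adjusted p = 0.0260, called in 9 of 12 fits with 1 pair left out) and PCA1, which encodes a metal-transporting ATPase, by 0.26 ± 0.06 in the third (adjusted p = 0.0133). SLF1, an RNA-binding protein gene linked to copper tolerance, had a slope of -0.16 ± 0.06 per hour (adjusted p = 0.0438), which was called in 21 of 37 fits with 1 array left out. The other downward slope, named after its values were seen, was that of the metallothionein gene CUP1-1, at -0.06 ± 0.02 (adjusted p = 0.0123).

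In the rest of the ferric reductase family 3 of 7 genes rose in the second cycle, where 10.3% of all probe sets did: FRE3 by 0.26 ± 0.06 (limma, adjusted p = 0.0136), FRE8 by 0.23 ± 0.06 (adjusted p = 0.0192) and FRE5 by 0.13 ± 0.04 (adjusted p = 0.0246). In the third cycle AIM14, named after its values were seen, fell by 0.11 (adjusted p = 0.0285), where 7.02% of all probe sets fell. FRE3, FRE8 and FRE5 differed there by -0.04, -0.14 and 0.01 and were not called, and the list median was -0.07. Of the slopes, 1 was upward (FRE5, 0.07 per hour, limma, adjusted p = 0.0289) and 1 downward (AIM14, -0.08, adjusted p = 0.0298). The FRE5 slope was called in 33 of 37 fits with 1 array left out. With position in the cycle as a covariate it was 0.04 per hour and was not called (limma, adjusted p = 0.1665). Over all probe sets 20.6% were upward and 19.2% downward. Of 6 iron uptake genes that depend on a multicopper oxidase or regulate it, only AFT2, an iron-responsive transcription factor gene, was called, and it fell by 0.17 in the second cycle (adjusted p = 0.0162), by 0.20 in the third (adjusted p = 0.0128), and by 0.21 per hour as a slope (adjusted p = 0.000206). FET3, the multicopper oxidase of iron uptake, differed by 0.01 ± 0.02 in the second cycle and by 0.00 ± 0.03 in the third.

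CTR3 shared its timing with 8 of these 31 genes at r above 0.8: CCC2, SOD1, COX17, SCO1, SCO2, CRS5, FRE6 and FET3, which were picked out after their values were seen. Over the other 5366 tested probe sets 7.42% reached that value. AFT2 was the most opposed of the 31, at r = -0.86.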

How the data were processed

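The deposited values are linear signal intensities of 10928 probe sets on 48 arrays, made by the authors with GCOS, per the submitters' processing notes. Not given in the sources used here were the version, the algorithm, its target and later rescaling; scale and centring are therefore unknown. Column medians ran from 32.4 to 86.8. Probe sets took gene names from the platform's annotation, updated with the R64 gene table. Deposited intensities under 1 were set to 1, then taken to log2 and quantile normalised. The dim limit of 3.01 was the 90th percentile of mean signal among 1747 probe sets for fission yeast; 126 budding yeast probe sets fell under it.

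All tests came from limma 3.58.1 under R 4.3.3, as moderated tests whose variance prior follows mean signal, with a call at a Benjamini-Hochberg adjusted p under 0.05 over all 5372. Pairs lay 44, 48 or 52 min apart. The 11 pairs 44 min apart, whose numbers come from time order, deviated together (correlations of 0.507 to 0.792), and a fit with these pairs as a block was an alternative for the level. The difference in that fit rests on the 11 pairs alone. No arrays were identical. The number of arrays limits the precision.

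The 6 genes and the lists were chosen with earlier results of these data known. Named genes are the 6, the 3 most correlated with each, and up to 3 called genes of each list with the largest change. CUP1-2 had no probe set of its own, and the probe sets of CUP1-1 and of VBA3 can each detect several genes. Alternatives were other scalings, filters, variance models, lags, periods, array subsets, covariates and left-out samples; splits of pairs at the skipped number and by suffix, and the left-out array at 96 min, were added after seeing the data. The tests were checked on simulated data with noise drawn independently for each sample, so the check does not cover likeness between neighbouring time points. Figures used matplotlib.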

Additional observations from a re-analysis of the deposited data

How the results depend on the processing

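For the level after phenelzine against control, 0 of the 6 genes were called, against 2 (CTR3, FRE1) with the replicate block of 11 pairs and 3 (CTR1, CTR3, FRE1) with position in the cycle as a covariate; over all probe sets the count was 25, with 454 and 501 under those fits, 1 on the deposited scale, 13 after median centring, 0 before the skipped array number and 0 with a random block of neighbouring time points, and 8 to 31 with 1 array left out. The block gives CTR3 a difference of 0.25 and the covariate 0.53. In the first cycle against control, 2 genes were called and 0 on the deposited scale, after median centring or at lags of 40 and 48 min (0 to 2 with 1 pair left out; all probe sets 198, then 0 in those 4 settings, 311 with a variance prior without a trend and 0 to 303 with 1 pair left out). In the second cycle against the first, 2 were called, 0 on the deposited scale, at lags of 44 and 52 min or without suffix 02 pairs, and 1 (CTR3) after median centring (1 to 2 with 1 pair left out; all probe sets 1027, 0 at the first 3 settings, 344 without suffix 02 and 612 to 1026 with 1 pair left out). In the third against the second, 0 were called, 3 (CTR1, CTR2, CTR3) on the deposited scale and 1 (CTR3) without the array at 96 min (0 to 1 with 1 pair left out). All probe sets numbered 853 there, 1823 on the deposited scale, all higher, with a median shift of 0.19, 322 after centring (34.5% higher, against 55.8% as reported), 50 and 154 at lags of 48 and 56 min, 547 to 960 with 1 pair left out, and 0 in pairs after the gap or without suffix 02. The deposited scale shifted the median by -0.13 in the first cycle and by 0.11 per hour in the trend, where 97.8% of 2279 calls were then higher, against 51.8% of 2138. The trend called 2 genes, 3 on the deposited scale (also CTR2, at 0.179 per hour), 0 with later arrays as a covariate (1.92% of all probe sets, against 39.8%, and 376 before the gap), and 2 in every fit with 1 array left out. The 96-min component called 54 probe sets before the gap and 20 without suffix 02, but 0 of the 6 genes. In the 11 settings that called no probe set, 138 to 2036 had an unadjusted limma p under 0.05.

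At the level and in the first cycle, signs turned for CTR2 (level -0.0228 with the random block), FRE7 (level 0.0335 and first cycle 0.0067, both centred), MAC1 (level 0.0014 with the random block) and CTR1 (first cycle -0.0224 as deposited), among others of like size. In the later comparisons signs turned for FRE7 in the second cycle (-0.0449 as deposited, -0.0424 centred, -0.014 at lag 44, -0.0459 to 0.102 with 1 pair left out) and the third (-0.0482 centred, -0.0222 at lag 56, -0.101 without suffix 02, -0.0403 to 0.0938 with 1 pair left out), CTR2 in the third (0.211 as deposited, 0.0247 centred, 0.0033 at lag 48, 0.0035 without the array at 96 min, -0.0121 to 0.0172 with 1 pair left out), MAC1 as deposited (0.0825 in the third, 0.0383 in the trend), FRE7 in the trend (-0.025 centred), and FRE1 (-0.0431) and SCO1 (-0.0245) in the 3 pairs of the third cycle after the gap. Without 1 pair, the first-cycle call was lost for CTR3 in 6 of 11 fits and for FRE1 in 8. No second-cycle call of a listed gene was kept on the deposited scale or at lags of 44 and 52 min. The cause was not tested in any of these.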
